A study of Mus musculus with 2 samples.

Results

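Netrins and Slits are secreted cues that steer growing axons and migrating cells. The ISL1 peaks listed under 7 genes of these 2 pathways were collected: the netrin gene Ntn1, its receptor genes Dcc and Unc5c, the Slit ligand genes Slit2 and Slit3, and the Slit receptor genes Robo1 and Robo2. A peak counted when the deposited list names one of these genes as the gene with the nearest transcription start site (TSS), at any distance. Of the 1483 peaks of the list 26 met this rule: 10 under Unc5c, 6 under Robo1, 6 under Robo2 and 4 under Slit2. Slit3, Dcc and Ntn1 had none. The 7 genes were chosen from earlier results on this same list, by the peaks listed under them, their places and their scores, so what follows is a description of these 26 peaks.

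The list came from 1 ISL1 chromatin immunoprecipitate of sinoatrial node cells, the pacemaker cells of the heart, from ICR mice carrying the Hcn4-H2BGFP reporter, at postnatal day 1 to 3. Cells were sorted for the green fluorescent signal, so they are the cells that the Hcn4-driven reporter marks. The other library of the series, input DNA of the same kind of cells, was not analysed here. There was no replicate, so no value below has an error between animals or preparations, and no test between conditions was possible. The LIM-homeodomain factor ISL1 acts in pacemaker cells and, outside the heart, in motor neurons.

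As background, netrin-1 attracts axons through DCC and repels them through receptors of the UNC5 family. Slit proteins bind ROBO receptors at the cell surface and mostly repel. In the developing heart and vessels the same cues act on cell migration and on the shaping of tissue. In motor neurons, Islet factors are known to act on Slit and semaphorin genes. The peak list measures where ISL1 was found on DNA. It does not measure expression, so the labelled cell type could not be checked through RNA of its markers.

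Each distance below counts from the TSS that the authors' annotation used, and for Robo2 the choice of start matters. The promoter table of RefSeq (build GRCm38.p6) held 7 starts for 5 of the 7 genes, 3 of them for Robo2. Dcc and Ntn1 were not among them. The peaks are in mm9 coordinates, and no position was carried from one build to the other. The 3 Robo2 promoters are shown because they are the starts between which the gene's far peaks may lie, and that of Unc5c because the highest peak of the list was listed under that gene. Each runs from 250 bases before to 50 bases after the start, on the gene's strand. Capitals mark TAAT, the core that homeodomain proteins commonly bind, on either strand (TAAT or ATTA).
Robo2, most downstream start, chr16:74411776-74412075, minus strand: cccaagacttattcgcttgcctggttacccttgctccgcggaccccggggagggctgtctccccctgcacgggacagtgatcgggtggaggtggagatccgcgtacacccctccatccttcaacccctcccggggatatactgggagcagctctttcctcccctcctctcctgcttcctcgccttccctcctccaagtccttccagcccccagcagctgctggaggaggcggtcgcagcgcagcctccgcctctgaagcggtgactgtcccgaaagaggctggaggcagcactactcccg
Robo2, middle start, chr16:75092721-75093020, minus strand: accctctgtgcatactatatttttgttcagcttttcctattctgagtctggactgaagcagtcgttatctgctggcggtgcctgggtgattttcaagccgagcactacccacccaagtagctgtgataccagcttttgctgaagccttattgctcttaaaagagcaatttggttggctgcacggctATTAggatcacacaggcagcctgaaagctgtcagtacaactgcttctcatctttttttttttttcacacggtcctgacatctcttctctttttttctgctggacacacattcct
Robo2, most upstream start, chr16:75447244-75447543, minus strand: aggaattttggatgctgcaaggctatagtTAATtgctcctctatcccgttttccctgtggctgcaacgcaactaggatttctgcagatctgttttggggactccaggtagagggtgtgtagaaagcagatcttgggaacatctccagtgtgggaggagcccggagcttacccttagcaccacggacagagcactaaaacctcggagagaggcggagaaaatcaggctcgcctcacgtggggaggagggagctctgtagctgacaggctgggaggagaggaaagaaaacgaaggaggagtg
Unc5c, chr3:141465314-141465613, plus strand: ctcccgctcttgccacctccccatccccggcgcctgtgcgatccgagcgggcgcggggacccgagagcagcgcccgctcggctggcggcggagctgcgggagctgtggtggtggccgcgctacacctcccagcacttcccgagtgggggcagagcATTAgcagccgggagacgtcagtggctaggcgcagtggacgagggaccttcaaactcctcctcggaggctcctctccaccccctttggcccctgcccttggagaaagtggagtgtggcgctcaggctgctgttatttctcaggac

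The TAAT core occurred 1 time in the Unc5c promoter and in each of the 2 upstream Robo2 promoters, and did not occur in the most downstream one. Of 32851 promoters of this length in the table, 58% held it. The Unc5c promoter was 68.3% G and C with 24 CpG dinucleotides, and the most downstream Robo2 promoter 65.0% with 17. The middle Robo2 promoter had 45.0% and 5, below the medians of all promoters in the table (52.7% and 7). The motif AGATAA occurred 1 time in the middle Robo2 promoter (11.2% of all promoters hold it on either strand). TAATTG occurred 1 time in the most upstream one, on top of the TAAT marked there (8% of all promoters). The motif TAATTA was in none of the 4 (5.29% of all promoters). Nor did any of the 4 hold TAATGG (7.73%). None of the 26 peaks carried the promoter annotation, which 48 of all 1483 peaks carried. With so few in the whole list, nothing is read from this.

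Unc5c, the netrin receptor gene of the set with peaks, held the group with the most peaks. Its peaks lay at 1 intergenic place upstream and at 9 places in intron 1 of 15 of the same transcript. The highest peak of the whole list, chr3:141138839-141138983 in mm9, lay 10.4 kb downstream of the TSS with a score of 84.8. The score is the authors' number per peak. All scores of the list were whole multiples of a step of 1.37 to 3 digits. If a step is 1 tag, this peak rests on 62 tags, with an exact Poisson 95% interval of 47.5 to 79.5, or 65.0 to 109 on the score scale. Such intervals cover counting error only. The next highest score in the list was 52.0, held by peaks of other genes, with an interval of 36.8 to 71.4 that overlaps the one of the highest peak.

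Going downstream from it, the intron 1 peaks followed at short spacing. After 7.89 kb came chr3:141146726-141146870 with a score of 12.3, and after another 8.07 kb chr3:141154795-141154939 with 26.0. The latter lies on a DNA transposon remnant (MER102c in the deposited annotation) and is 1 of the 26 peaks, and no other, annotated to a repeat. The peaks chr3:141161376-141161520 and chr3:141172651-141172795, at 32.9 and 44.2 kb from the TSS, scored 16.4 each. These 5 peaks lie between 10.4 and 44.2 kb of the TSS, and the spacing then widens.

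Beyond a gap of 30.0 kb lay chr3:141202678-141202822 at 74.2 kb (score 12.3), and then chr3:141224322-141224466 at 95.9 kb (13.7). The last peaks of the intron, chr3:141244128-141244272 (21.9) and chr3:141244412-141244556 (26.0), start 284 bp apart at 116 kb. Sheared fragments were 100 to 400 bp long, so this pair may be 1 site that the list gives as 2 peaks. With peaks within 1 kb merged, Unc5c had 9 peaks. The intergenic peak, chr3:141059492-141059636, scored 15.1 and lay 69.0 kb upstream, with no other peak within 50 kb.

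If steps are tags, the lower limit of the highest peak (65.0) lies above the upper limits of the 9 others, which reach at most 40.6. The 9 others overlap each other by that measure. The highest peak was picked as the top of the list, which such intervals do not allow for. Nothing is therefore read from its separation. The peaks of 26.0 rest on 19 steps (11.4 to 29.7) and those of 12.3 on 9 (4.12 to 17.1).

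**Figure D1:**
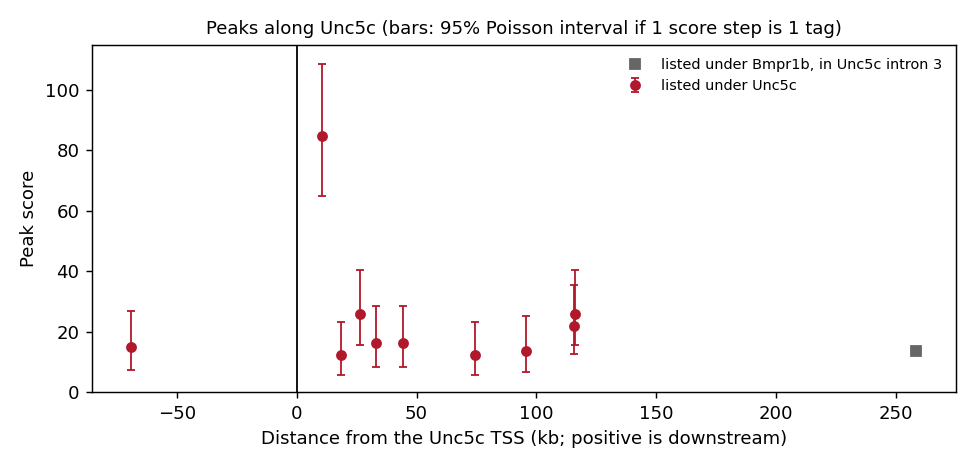
Score (y axis) of each peak along Unc5c against its distance from the TSS in kb (x axis); bars are exact 95% Poisson intervals if 1 score step is 1 tag. The peak of 84.8 at 10.4 kb stands above the 9 others of the gene, and the peak in intron 3 that is listed under Bmpr1b lies 258 kb downstream.

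The listing by nearest TSS left out 1 peak inside Unc5c. The peak chr3:141386938-141387082, score 13.7, was annotated to intron 3 of 15 of the Unc5c transcript and lay 258 kb downstream of the Unc5c TSS. It was listed under Bmpr1b, a BMP receptor gene, whose TSS was 208 kb away. The next peaks downstream were 2 in introns of Bmpr1b and 1 in intron 3 of Pdlim5, a Z-disc gene. On the upstream side the list held no peak for 1410 kb, up to a peak of 38.3 listed under the microRNA gene Mirlet7j. Counting the intron 3 peak, 10 peaks lay inside Unc5c and 11 inside it or listed under it.

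Robo1 and Robo2, the Slit receptor genes, lie on chromosome 16 with their starts 1748 kb apart and transcribed towards each other. Their 12 peaks were spread over 2864 kb, and 10 of the 12 were upstream of the TSS used for the gene they were listed under. The signed distances of the peaks of each gene point to 1 TSS, at position 72663394 for Robo1 (plus strand) and 74411157 for Robo2 (minus strand). The stretch also held 1 peak under neither gene.

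The 6 peaks of Robo1 lay at 3 kinds of places. The highest, chr16:71968377-71968521 with a score of 34.2, was intergenic and lay 695 kb upstream. A group of 3 lay 229 to 253 kb upstream within 24.6 kb: chr16:72410245-72410389 (17.8), chr16:72413174-72413318 (27.4) and chr16:72434680-72434824 (12.3). The first 2 of the group start 2.93 kb apart. Downstream of the TSS lay chr16:72889322-72889466 in intron 2 of 28 at 226 kb (12.3), the only Robo1 peak annotated to the gene, and the intergenic chr16:73232097-73232241 at 569 kb (15.1). None of the 6 was within 100 kb of the TSS.

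By the TSS used for each gene, the listing of the highest Robo1 peak was a close call. The RefSeq gene span of Robo1 reaches 636 kb upstream of its tabled start, towards this peak. Whether that span makes the listing firmer was not tested. It lies 22.7 kb from chr16:71945630-71945774, a peak of 13.7 listed under the noncoding gene 4930567J20Rik. That peak is 696 kb from its listed TSS and 718 kb from the TSS of Robo1, so the line between the 2 genes falls between these neighbouring peaks. Another 2 peaks listed under 4930567J20Rik, of scores 12.3 and 31.5, lie 770 and 811 kb upstream of Robo1. Together the 4 peaks start within 116 kb, of which 1 counts for Robo1 by the rule.

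All 6 peaks of Robo2 were annotated as intergenic and lay upstream of the TSS used. The 3 nearest form a group of 46.4 kb: chr16:74458551-74458695 at 47.5 kb (16.4), chr16:74479265-74479409 at 68.2 kb (13.7) and chr16:74504767-74504911 at 93.7 kb (15.1). The highest, chr16:74651654-74651798, stood alone at 241 kb with a score of 26.0 and no other peak within 100 kb. The farthest, chr16:74785638-74785782 (16.4) and chr16:74832341-74832485 (12.3), lay at 375 and 421 kb. Beyond them the list held no peak for 1981 kb. Robo2 thus had 3 peaks within 100 kb of its TSS, where Robo1 had none.

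Both genes have starts or transcript models that reach farther than the TSS behind these distances. In the RefSeq promoter table the 2 other Robo2 starts lie 681 kb and 1035 kb upstream of the most downstream one, farther than any of the 6 peaks is from the TSS the authors used (at most 421 kb). The RefSeq gene span of Robo1 reaches 636 kb upstream of its tabled start, and 3 of its 4 upstream peaks are nearer than that to the TSS. The mm9 TSS of Robo2 (74411157) lies closest in number to its most downstream tabled start (74411825). The mm9 TSS of Robo1 (72663394) lies close to its tabled start (72663149). By this match all 6 Robo2 peaks and 3 of the 4 upstream Robo1 peaks fall inside the longer RefSeq gene spans. Positions were not converted between the builds, so this placement was not tested. The intergenic label of these peaks holds for the transcripts of the authors' annotation.

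**Figure D2:**
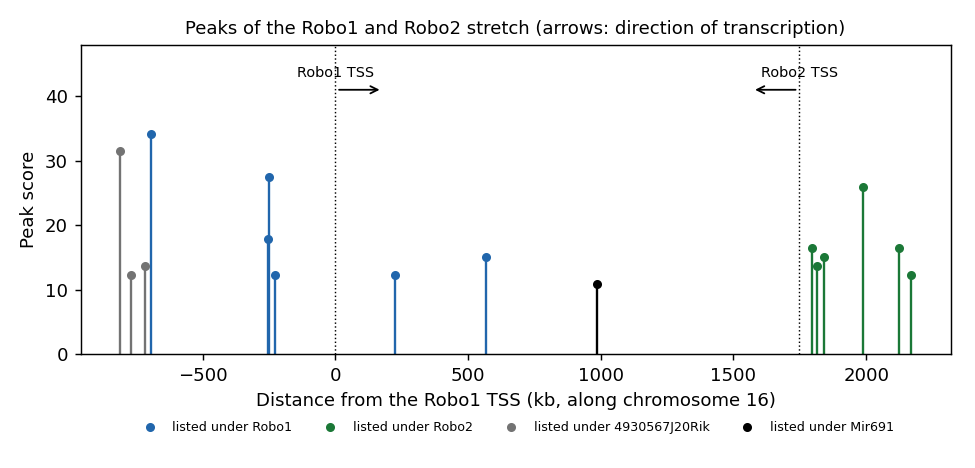
Score (y axis) of each listed peak against its distance along chromosome 16 from the Robo1 TSS in kb (x axis), coloured by the gene it is listed under; dotted lines are the 2 starts and arrows the direction of transcription. The 6 Robo2 peaks lie to the right of the Robo2 start used, which is upstream of that start, and the Robo1 peak of 34.2 lies beside the peaks listed under 4930567J20Rik.

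Between the starts of these convergent genes the list held 3 peaks. Besides the 2 Robo1 peaks downstream of its TSS there was chr16:73647360-73647504, score 10.9, listed under the microRNA gene Mir691. It lay 984 kb downstream of the Robo1 TSS, 764 kb downstream of that of Robo2 and 695 kb from that of Mir691. The 3 distances show how the rule decided the name. Chromosome 16 held 76 peaks in all, 0.845 per Mb between its first and last peak, and the stretch from the first Robo1 to the last Robo2 peak held 13, or 4.54 per Mb. The stretch was drawn around peaks, which raises its density by construction.

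Slit2, which encodes a ligand of both receptors, had 4 peaks, all intergenic and all far upstream. The highest, chr5:47887670-47887814, scored 35.6 and lay 487 kb from the TSS. Only 20 peaks of the list scored higher. It sits between chr5:47845401-47845545 and chr5:47928946-47929090, which scored 19.2 each, at spacings of 42.3 and 41.3 kb. These 3 peaks span 83.7 kb, and their scores are highest in the middle. If steps are tags they rest on 26 (17.0 to 38.1), 14 (7.65 to 23.5) and 14, intervals that overlap.

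The fourth Slit2 peak, chr5:47502353-47502497, lay 872 kb upstream with a score of 9.58, among the lowest of the list (1421 peaks scored higher). None lay in the Slit2 gene, and the nearest was 445 kb from its TSS. The next peak on the downstream side, of 9.58, was 362 kb past the Slit2 TSS and was listed under Pacrgl, 26.7 kb from that gene's start. On the other side the next peak was 538 kb away, under 4930405L22Rik. So no other gene's peak lies inside the Slit2 group.

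**Figure D3:**
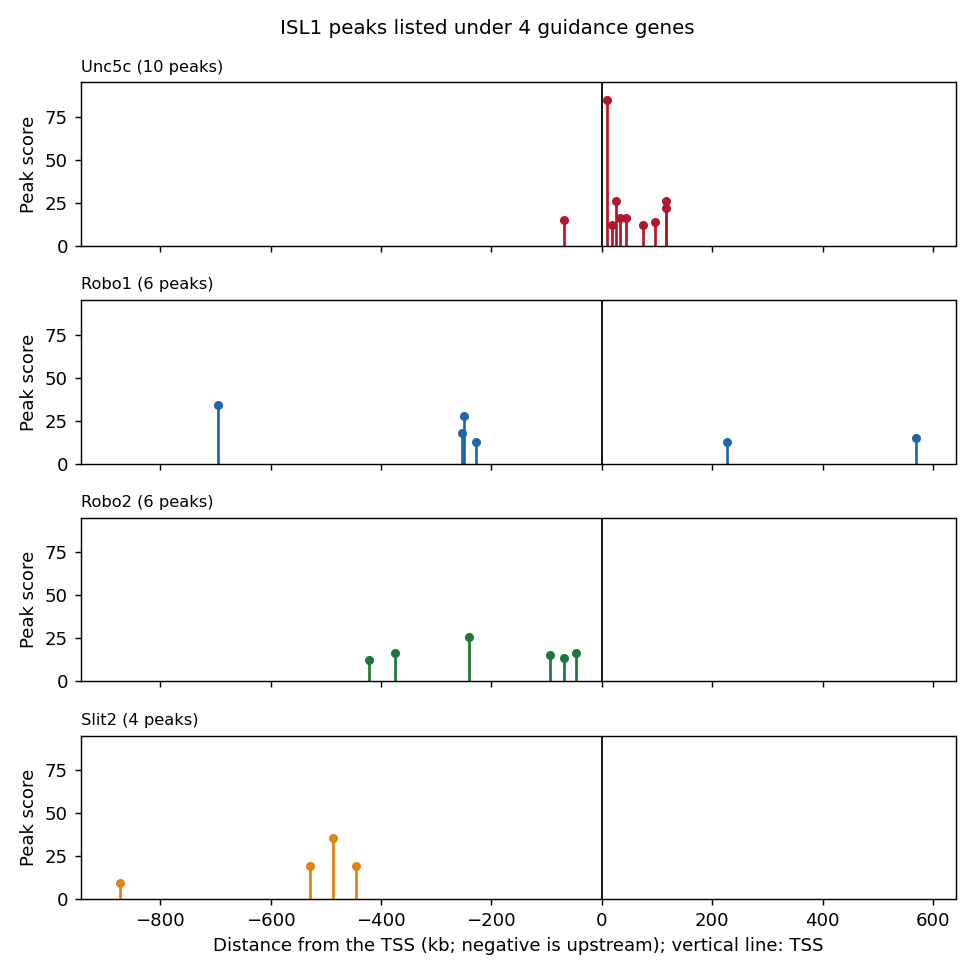
Score (y axis) of the 26 peaks against distance from the TSS in kb (x axis, negative is upstream), 1 panel for each of the 4 genes with peaks. The Unc5c peaks sit mostly downstream within 116 kb, those of Robo2 and Slit2 are all upstream, and those of Robo1 lie on both sides.

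Slit3, Dcc and Ntn1, another Slit ligand, the attractive netrin receptor and the ligand of DCC and UNC5C, were listed under none of the 1483 peaks. No peak was annotated inside them either, so 4 of the 7 also stands when genes that hold a peak are counted (4.21% of all genes). In the gene order of RefSeq GRCm38.p6, the nearest genes with a peak were 53 places before and 9 places after Slit3 (Rps27a and Gm12130). For Ntn1 they were 27 and 272 places away (Dnah9 and Bhlha9), and for Dcc 119 and 55 (Gm4951 and Slc14a1). Unc5c, Robo1, Robo2 and Slit2 had a gene with a peak within 4 places on either side. Robo1 and Robo2 counted as such a gene for each other, and 1 peak of Bmpr1b, beside Unc5c, lies inside Unc5c. Places in gene order are not distances: the gap without peaks upstream of the Unc5c peaks was 1410 kb. The microRNA genes Mir218-1 and Mir218-2, which lie inside Slit2 and Slit3, had no peak listed under them. With 1 library of unknown depth, a gene without a listed peak is not shown to be unbound.

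The genes with peaks and those without overlapped in length. In RefSeq GRCm38.p6 the span of Dcc is 1098 kb, that of Slit3 587 kb and that of Ntn1 177 kb, against 1555 kb for Robo2, 1020 kb for Robo1, 369 kb for Unc5c and 326 kb for Slit2. All 7 are longer than at least 95.5% of the 26220 genes with a curated transcript. Genes of such length and in wide spaces are nearest to more of the genome, and the counts below were not corrected for it.

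Beside all genes, 4 of the 7 had a peak, where 3.82% of the 26220 genes did. Within 100 kb of the TSS 2 of the 7 had one, Unc5c and Robo2, where 2.57% did. All 4 genes with a peak had at least 4, as did 0.187% of all genes. The rule and the choice of genes rest on these same peaks, so nothing is read from these counts. Of the 1003 genes named in the list, 15 had 6 peaks or more, among them Unc5c, Robo1 and Robo2. Unc5c was second by number, after 1700019E08Rik with 11.

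The scores of the 26 peaks ran from 9.58 to 84.8 with a median of 16.4, and those of the whole list had a median of 15.1. The difference of the medians is 1 step. In the highest 10% of the list by score, from 23.3 upwards (tied scores included), were 7 of the 26, where 10.9% of all peaks were. The 7 are 3 peaks of Unc5c, 2 of Robo1, and 1 each of Robo2 and Slit2. Per gene the medians were 16.4 for Unc5c, 16.45 for Robo1, 15.8 for Robo2 and 19.2 for Slit2.

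**Figure D4:**
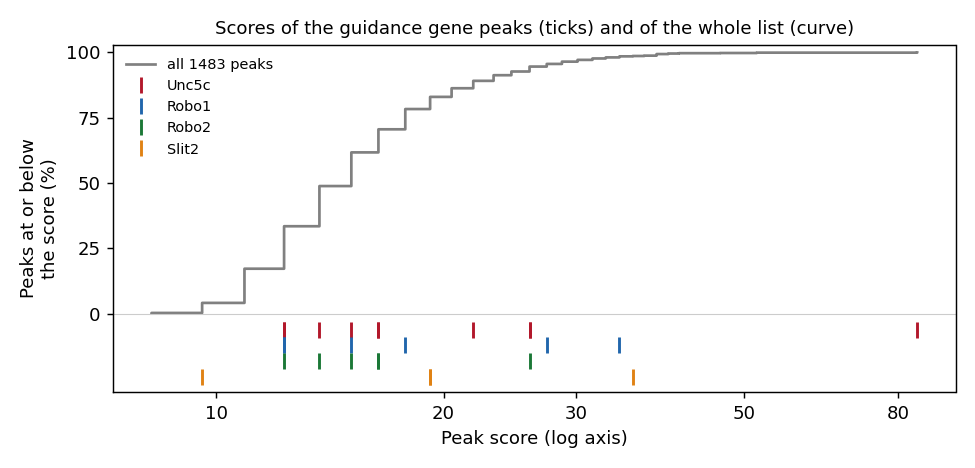
Percent of all 1483 peaks at or below each score (curve; x axis score on a log scale) and the scores of the guidance gene peaks (ticks below, 1 row a gene; equal scores overlap). Most ticks lie between 12.3, the lower quartile of the list, and 26.0, which is above its upper quartile of 17.8. The Unc5c tick at 84.8 is the highest value.

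The deposited focus ratio, a fraction given for each peak, ran from 0.59 to 0.923 with a median of 0.726, and that of the list was 0.739. The highest Unc5c peak had 0.674, the highest Slit2 peak 0.684 and the highest Robo1 peak 0.6. The highest value of the set belonged to the Robo2 peak at 93.7 kb (0.923), and the lowest to the Robo1 peak at 250 kb (0.59). Over the 26 peaks score and focus ratio had a Spearman correlation of -0.26, and score and distance one of 0.05. Over all 1483 peaks the values were -0.0065 and 0.04. These are descriptions over peaks of 1 library that share loci.

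The 4 genes differed in where their peaks lay relative to the TSS used. The median distance from the TSS was 56.6 kb for Unc5c, 167 kb for Robo2, 252 kb for Robo1 and 508 kb for Slit2. Over all 26 it was 171 kb, and without Unc5c 314 kb, where the median of the list was 83.4 kb. Beyond 200 kb lay 13 of the 26, none of them under Unc5c, and 24.7% of all peaks. Upstream of the TSS lay 15 of the 26 and 41.2% of all peaks. Unc5c had 1 upstream peak of 10, Robo1 4 of 6, Robo2 6 of 6 and Slit2 4 of 4. For Robo1 and Robo2 these counts depend on the TSS used, since longer RefSeq gene spans may hold most of those upstream peaks.

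**Figure D5:**
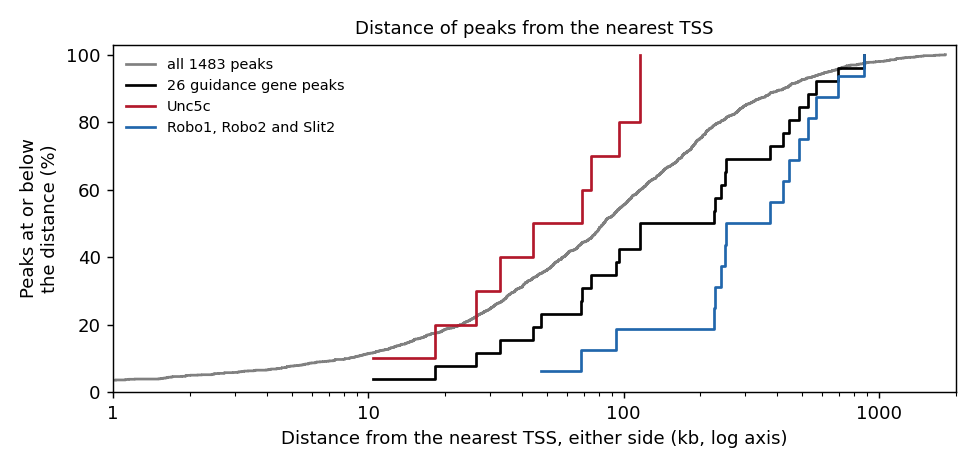
Percent of peaks at or below each distance from the nearest TSS (x axis in kb, log scale, either side) for all peaks, the 26 guidance gene peaks, Unc5c alone and the 3 other genes together. The Unc5c curve ends at 116 kb, while the curve of Robo1, Robo2 and Slit2 has a median of 314 kb.

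Peaks of these genes had close neighbours. Another peak of any gene lay within 50 kb of 21 of the 26, where that held for 29.1% of all peaks, and within 500 kb of all 26 (68.2% of all peaks). Joining peaks across gaps of up to 50 kb put the 21 into 6 groups. The groups were the 9 peaks of Unc5c intron 1, 3 of Slit2, 3 of Robo1, 3 and 2 of Robo2, and the Robo1 peak paired with one of 4930567J20Rik. The Unc5c group was the largest of the 189 groups of the list, the next having 6 peaks. With gaps of up to 10 kb, its largest group had 4 peaks, and among peaks at or above the list median 4. Grouped peaks under 1 gene are what the choice of genes with several peaks brings, so these shares are no support for grouping.

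Other genes of the netrin and Slit pathways were looked up from a list of 54. Peaks at any distance were listed under 5 of them (9.26%, beside 3.82% of all genes), and within 100 kb under none (2.57% of all genes). The list was chosen with earlier results of these data known, and gene length was not corrected for. Nothing is therefore read from these shares. Among 20 netrin-side genes there were 4. Flrt2 and Flrt3 encode membrane proteins that bind UNC5 receptors. Flrt2 had 4 intergenic peaks 210 to 521 kb upstream, of scores 10.9 to 23.3, in 2 pairs: chr12:96409409-96409553 with chr12:96421548-96421692, and chr12:96713593-96713737 with chr12:96720399-96720543. Flrt3 had 1 of 24.6 at 655 kb upstream, inside intron 5 of Macrod2 (chr2:141152595-141152739).

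Ntng1, which encodes the membrane-anchored netrin-G1, had 1 peak of 26.0 in its own intron 2 of 7, at 120 kb (chr3:109825884-109826028). Lphn3, a latrophilin gene whose product binds FLRT proteins, had 1 of 13.7 at 889 kb (chr5:82339133-82339277). Among 15 Slit-side genes only Sdc2, a heparan sulfate proteoglycan gene, had a peak, of 20.5 at 139 kb upstream (chr15:32711783-32711927). The third Robo gene Robo3, the endothelial Robo4, Slit1, and the UNC5 genes Unc5a, Unc5b and Unc5d had none. None of 19 shared downstream genes, which include the adaptors Nck1 and Nck2 and the GTPases Rac1 and Cdc42, had a peak. Since only 3.82% of all genes had one, nothing is read from these counts.

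Of cell type marker genes, peaks were listed under 2 of 5 pacemaker genes (Isl1 and Tbx18), 1 of 13 autonomic neuron and glia genes (Gata3) and 1 of 5 endothelial genes (Emcn), at any distance, where 3.82% of all genes had one. Of these, Tbx18 and Emcn had theirs within 100 kb (2.57% of all genes). The pacemaker genes Hcn4, Shox2 and Tbx3 had no peak listed under them. The marker lists too were chosen with earlier results known, so nothing is read from these counts. The peaks are places of binding, not levels of RNA. Their part in the peaks of the guidance genes was not tested.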

How the data were processed

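ISL1 chromatin immunoprecipitation and sequencing was analysed from 1 library as the authors' annotated peak list. Per the labels' protocols, cells were crosslinked with 2 mM disuccinimidyl glutarate and 1% formaldehyde. The first also links proteins to each other, so a peak need not be direct contact with DNA. Bowtie, HOMER and mm9 are named per the submitters' processing notes. Nothing used here states the settings of the peak caller or how the input was used. The deposited peak score is the authors' own number, with scaling not stated, and the deposited focus ratio is a fraction per peak. Annotation and distance to the TSS are the authors', per the file headers. Peaks are 144 bp from start to end.

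Peaks were selected by the listed gene name. A peak was placed inside a gene through the transcript accession in its annotation; 678 of 685 such peaks matched the RefSeq GRCm38.p6 table. That table gave names, gene order and spans, and its promoter table the printed sequences. No mm9 genome was used, so the sequences of the peaks are not shown and the planned search for motifs in them was not run. Score steps were found by search; 0 of 1483 scores were off after rounding to 3 digits. Grouping and merging were tested on simulated positions. Python 3.11.15, pandas 2.3.3 and SciPy 1.17.1 were used.

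The genes, the pathway lists and the marker lists were chosen with earlier results of these data known. The text names all 7 genes, each pathway gene with a peak, the genes on either side and the genes that hold a peak. Robo3, Robo4, Slit1, the other UNC5 genes, the downstream examples, 1700019E08Rik and the miR-218 genes were added to complete counts. So were the pacemaker genes without a peak. No significance test was run. The depth of the library is unknown, as total reads were not used here; the score steps give tags per peak only if a step is 1 tag.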

Additional observations from a re-analysis of the deposited data

How the results depend on the processing

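The counts of peaks and genes, the largest group, the pathway count and the medians were recomputed under other settings, 33 values in all. Of these, 25 stayed close to the main value: within 1.5 times for counts, within the 95% binomial interval of the median for medians. With only the highest 25% of peaks by score (436 of 1483, tied scores included) there were 11 guidance gene peaks in place of 26. Unc5c had 4 in place of 10. The largest group had 3 peaks, those of Slit2, in place of the 9 of Unc5c, whose group broke up. At or above the median score the largest group had 4, and with gaps of up to 10 kb 4, both of Unc5c. With only peaks within 100 kb of the TSS, 11 peaks under 2 genes were left, and 0 of the 54 pathway genes in place of 5. All these settings use fewer peaks or narrower gaps by construction. All 4 genes kept a peak at both of these score limits. The median distance was 314 kb without Unc5c in place of 171 kb. It counted as close only by the interval, and would not by the 1.5 times used for counts. That interval treats the peaks as independent, which peaks that share loci are not. No paired analysis was possible because the series has 1 immunoprecipitated library, and leaving out a replicate was not possible for the same reason. The unknown total depth limits what can be said of Slit3, Dcc and Ntn1 and of peaks near the lowest score.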
